A study of Mus musculus with 8 samples.

Results

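The genes described here are 32 genes of fatty acid oxidation and ketone use, chosen by gene symbol from the 18022 genes of the count table. They comprise 4 acyl-CoA synthetases, 4 genes of the carnitine shuttle, 4 mitochondrial acyl-CoA dehydrogenases and 5 genes of the hydration-to-thiolysis steps. To these come 4 enzymes for unsaturated bonds, 3 genes of electron transfer, 4 peroxisomal oxidation genes and 2 ketone-use genes. The kinase Pdk4 and the thioesterase Acot2 are grouped here under regulation. All 32 were in the table, and all 32 had enough reads to be tested. RNA of subcutaneous adipose tissue was sequenced from 4 mice labelled KO (genotype Pkd1adipo delta/delta, a deletion of protein kinase D1 in adipocytes) and 4 mice labelled WT (genotype Pkd1(flox/flox), which carry the floxed alleles only). All 8 mice were C57BL/6J, back-crossed 4 times, and each library had a mouse of its own. The sources used here do not give age, sex, diet, the Cre driver or the deleted exons. The p-values measure the spread between these 8 mice.

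The study's Pkd1 is protein kinase D1, whose gene symbol in the table is Prkd1. Prkd1 had 26.1, 37.1, 29.9 and 33.5 CPM (read counts scaled to library size) in KO libraries 1 to 4, against 32.3, 28.7, 33.6 and 26.6 CPM in WT libraries 1 to 4. The values of the labels overlapped, and the log2 fold change, KO over WT, was 0.06 ± 0.15 (SE), with a two-sided exact permutation p of 0.629. The counts of the whole gene therefore gave no check of the genotype labels, and "KO" and "WT" below are the labels' names. In whole tissue, fewer cells of a type and less RNA per cell cannot be told apart.

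Fatty acids are first joined to coenzyme A by acyl-CoA synthetases, and long chains then enter mitochondria through the carnitine shuttle. Each turn of beta-oxidation is a dehydrogenation, a hydration, another dehydrogenation and a thiolysis, with electrons passed on by electron transfer flavoprotein. Peroxisomes run a parallel set of reactions with their own enzymes on very long and branched chains, and extrahepatic tissues burn ketone bodies through succinyl-CoA transfer and thiolysis. White fat mainly stores lipid, whereas brown and beige adipocytes oxidise fatty acids for heat.

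The peroxisomal thiolases Acaa1a and Acaa1b are shown first, because Acaa1b had the smallest p of the 32 genes and because reads of these near-identical copies can be misassigned. Over their 1272 coding bases (transcripts Acaa1a-201 and Acaa1b-201 of GENCODE M21, chromosome 9) they differed at 44 positions, an identity of 96.5%. Of the 31-base words in the Acaa1b transcripts, 40.0% also occurred in Acaa1a. The window richest in differences, coding bases 460 to 549, is printed from 5′ to 3′ with the 13 differing bases in capitals.
Acaa1a: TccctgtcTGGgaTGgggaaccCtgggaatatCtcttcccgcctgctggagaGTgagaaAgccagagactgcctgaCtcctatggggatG
Acaa1b: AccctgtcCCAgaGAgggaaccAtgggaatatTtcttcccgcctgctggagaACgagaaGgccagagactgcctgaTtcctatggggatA
A read that falls wholly in a stretch the copies share, outside such a window, could come from either copy. Their values are therefore uncertain where the authors' counting split or dropped shared reads. The kit also does not mark strand, and opposite-strand genes overlap 11.4% of the exon bases of Acaa1b (Dlec1) and 6.57% of those of Acaa1a (Myd88).

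RefSeq promoter windows (GRCm38.p6, 250 bases before to 50 after the start site) were at hand for 27 of the 32 genes, 28 windows in all. Hsd17b4, Decr1, Crat, Acat1 and Acaa2 had none. Those of Hadha, Acaa1b and Pdk4 are given on the strand of the gene. Hadha and Hadhb, the subunits of the mitochondrial trifunctional protein, start head to head with 272 bases between their start sites, and the 228 bases that their windows share are in capitals in the Hadha window at chr5:30154931-30155230 (minus strand).
Hadha: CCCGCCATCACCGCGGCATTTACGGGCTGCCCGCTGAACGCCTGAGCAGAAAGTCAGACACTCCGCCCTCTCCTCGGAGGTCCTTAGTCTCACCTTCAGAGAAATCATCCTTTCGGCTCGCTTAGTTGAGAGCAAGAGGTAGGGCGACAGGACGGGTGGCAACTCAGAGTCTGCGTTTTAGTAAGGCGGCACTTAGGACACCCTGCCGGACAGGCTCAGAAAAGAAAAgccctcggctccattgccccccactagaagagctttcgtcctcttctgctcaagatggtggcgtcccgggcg
The Acaa1b window lies at chr9:119157044-119157343 (minus strand). Its GC content of 43.7% was lower than that of the Acaa1a window (53.3%) and stood at percentile 18.7 of all 32851 windows.
Acaa1b: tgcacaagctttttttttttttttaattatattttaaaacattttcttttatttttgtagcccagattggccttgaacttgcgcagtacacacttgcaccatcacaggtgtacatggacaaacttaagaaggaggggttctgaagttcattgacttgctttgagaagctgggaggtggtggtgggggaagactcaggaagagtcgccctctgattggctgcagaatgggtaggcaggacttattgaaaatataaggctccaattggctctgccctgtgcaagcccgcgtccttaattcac
The Pdk4 window lies at chr6:5496229-5496528 (minus strand) and is shown because Pdk4, a brake on glucose oxidation, was the most variable of the 32 genes between mice of a label.
Pdk4: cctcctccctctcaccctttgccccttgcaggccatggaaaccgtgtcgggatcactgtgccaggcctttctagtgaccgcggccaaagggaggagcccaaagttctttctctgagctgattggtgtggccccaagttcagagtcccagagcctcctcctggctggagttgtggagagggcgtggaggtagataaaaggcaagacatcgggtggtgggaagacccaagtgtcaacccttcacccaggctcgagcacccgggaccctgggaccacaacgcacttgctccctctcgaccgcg

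These windows were searched on both strands for the direct repeat of AGGTCA with 1 free base between the arms, to which PPAR-RXR receptors bind, and for TCAAGGTCA, the element of estrogen-related receptors. AGGTCA ends the second motif and forms both arms of the first. The exact repeat was in none of the 28 windows of these genes and in 0.0396% of all windows, and TCAAGGTCA was in none of the 28 and in 0.423%. With up to 2 mismatches the repeat was found for 3 of the 27 genes and in 3.86% of all windows, a share of windows and not of genes. The 3 stretches are given with 20 bases on either side and the match in capitals, on the strand of the gene. The matches begin 83 bases before the start of Echs1 (chr7:140116472-140116524, minus strand), 77 bases before that of Etfa (chr9:55512288-55512340, minus strand, matching on the other strand) and 7 bases after that of Slc25a20 (chr9:108662122-108662174, plus strand).
Echs1: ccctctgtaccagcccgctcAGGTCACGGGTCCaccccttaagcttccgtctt
Etfa: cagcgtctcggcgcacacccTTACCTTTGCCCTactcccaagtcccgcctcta
Slc25a20: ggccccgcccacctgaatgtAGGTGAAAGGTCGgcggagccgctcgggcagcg
A match describes letters only, and binding was not measured.

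Libraries held between 2617755 and 2873457 reads. Adipocyte markers (12 of 12 in the table, among them Adipoq and Plin1) summed to between 17270 and 23470 CPM in KO libraries and between 18620 and 21860 CPM in WT libraries, and none was at 0 in any library. Markers of other tissues stood apart in some libraries. All 23 skeletal muscle markers averaged higher in KO and summed to 3604, 2260, 439.2 and 4137 CPM in KO libraries 1 to 4, against 415.1, 201.4, 623.7 and 113.1 CPM in WT libraries 1 to 4, with 5 of the 23 at 0 in at least 1 library. KO libraries 1, 2 and 4 were above every WT library in this sum. Fits below with the muscle sum as a covariate therefore cannot fully tell muscle RNA from the label. Of 14 measured liver markers (16 were listed), 1 averaged higher in KO, and they summed to 503.2, 1134, 378.0 and 488.9 CPM in KO libraries against 2141, 494.7, 426.4 and 1848 CPM in WT libraries, with 3 at 0 in at least 1 library. Small intestine markers (4 of 8 in the table, 0 of the 4 higher in KO, 2 at 0 in at least 1 library) summed to between 41.0 and 59.0 CPM in KO libraries, against 140.2, 568.3, 44.0 and 128.0 CPM in WT libraries 1 to 4. Lymphoid markers (8 of 9 in the table) summed to between 45.3 and 64.5 CPM in KO libraries and between 69.3 and 132.1 CPM in WT libraries.

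Per kilobase of exon, Acsl1, the main long-chain acyl-CoA synthetase of adipocytes, had the highest level, at 142 ± 16.4 RPKM (CPM divided by kilobases of exon; mean ± SD, n = 8 libraries). It was followed by Etfb (129 ± 27.5 RPKM), the beta subunit of electron transfer flavoprotein, and Acadl (108 ± 17.99 RPKM), the long-chain acyl-CoA dehydrogenase. The peroxisomal multifunctional enzyme Hsd17b4 came next at 91.3 ± 8.52 RPKM. By exon-union length, the lowest levels were those of Etfdh (9.81 ± 1.02 RPKM), which passes electrons to ubiquinone, Acsl3 (9.27 ± 3.01 RPKM) and Acsl4 (6.35 ± 1.53 RPKM). By longest transcript, Acadl ranked 5 in place of 3, Ech1 3 in place of 5 and Etfdh 28 in place of 30, while Acsl3 and Acsl4 stayed the lowest. No gene stood apart from its neighbour in this order by more than the sum of both SDs. Exon lengths came from GENCODE M21, another build than the authors' mm9, and the level of Etfb is uncertain because 53.0% of its exon bases also belong to the same-strand gene Gm45233.

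**Figure D1:**
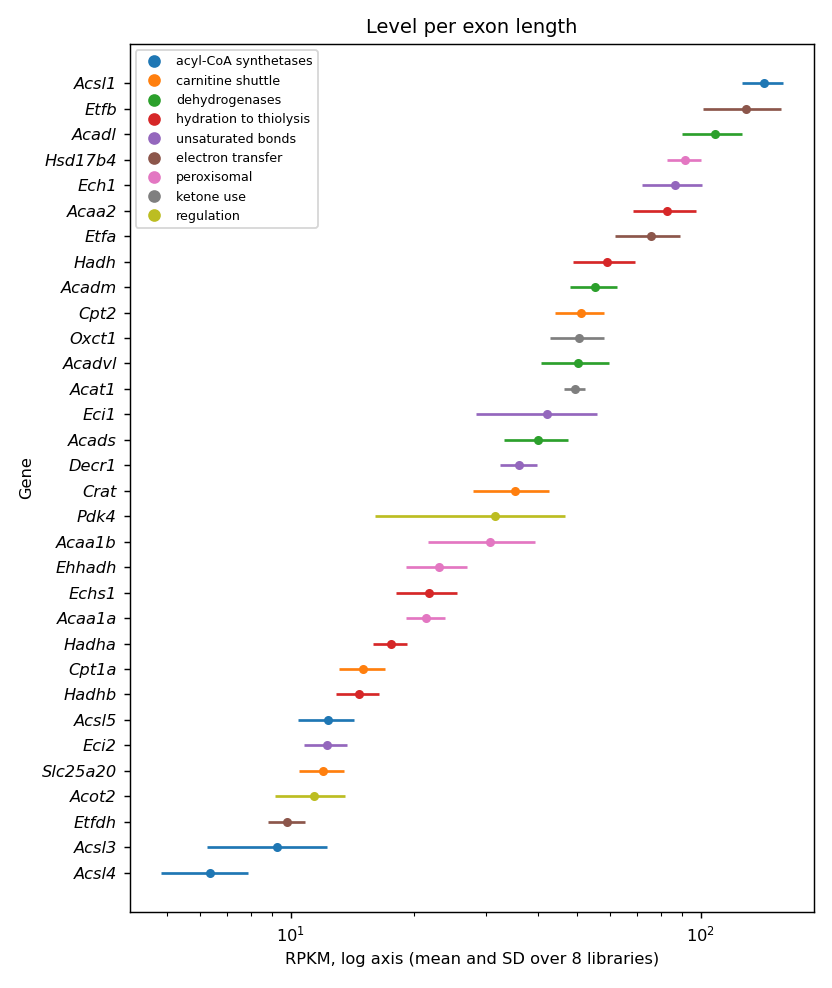
Mean level of each of the 32 genes in RPKM on a log axis, with the SD over 8 libraries as the bar and the role as the colour. Levels run from 6.35 RPKM for Acsl4 to 142 RPKM for Acsl1, without a gap between neighbours that exceeds their SDs.

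The comparison of KO with WT asks whether the RNA levels of these genes differed in fat between mice labelled as lacking protein kinase D1 in adipocytes and mice labelled as floxed controls. In edgeR's quasi-likelihood test, 0 of the 32 genes passed an adjusted p of 0.05, where 0 of 14556 genes tested (0%) passed it. At an unadjusted p under 0.05 there was 1 of 32, Acaa1b, against 4.49% of all genes tested, and the labels did not overlap for 1 of 32, again Acaa1b, against 2.92% of all genes. Log2 fold changes were positive for 13 and negative for 19 of the 32, with a median of -0.05, while 7290 of all genes tested were positive and 7266 negative, with a median of 0.0004. Apart from Acaa1b, all log2 fold changes lay between -0.21 and 0.25. The test's adjusted p was 0.998 for each of the 32.

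Other tools gave no call among the 32 either. DESeq2 called 0 of the 32 and 0.263% of all genes with an adjusted p, edgeR's likelihood ratio test called 0 of the 32 and 0.398%, and the quasi-likelihood test without KO library 3 called 0 of the 32 and 0.336%. In the authors' deposited table, 0 of the 32 had an adjusted p under 0.05, against 2.42% of its 18022 genes. The authors' deposited table gave Acaa1b a log2 fold change of -0.54 with an unadjusted p of 0.0129 and an adjusted p of 0.334, and the other 31 genes an adjusted p of 1.

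**Figure D2:**
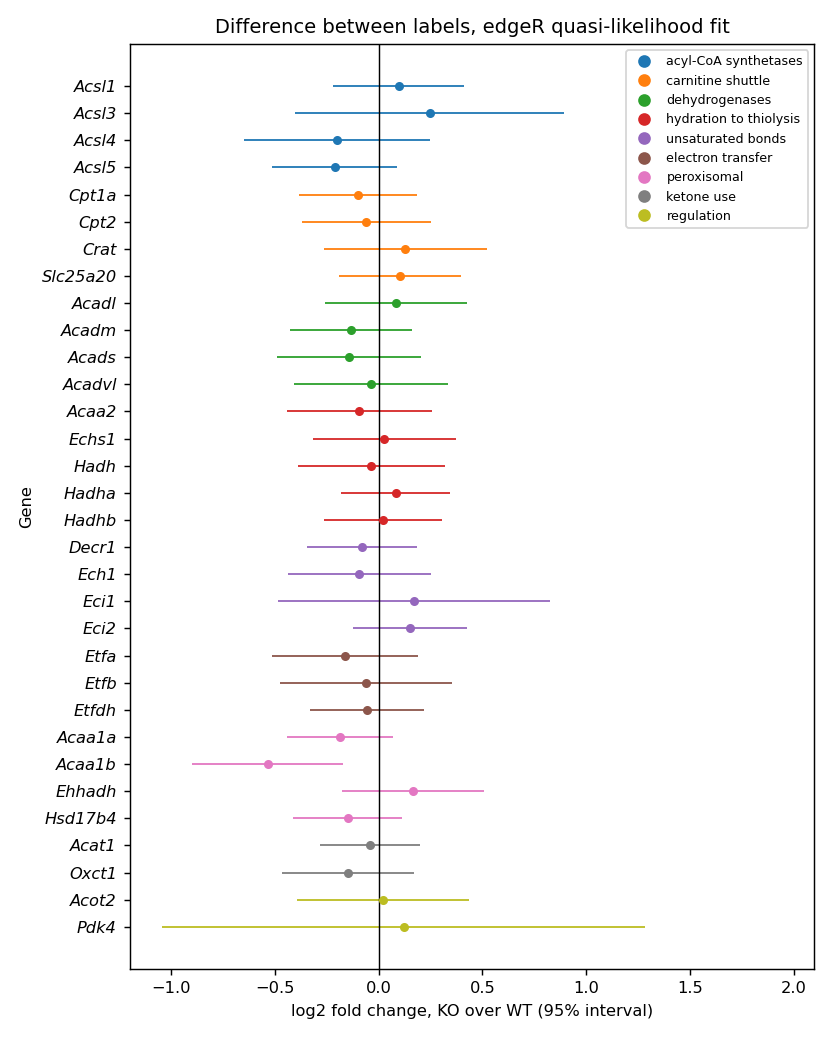
Log2 fold change, KO over WT, of each of the 32 genes with its 95% interval from edgeR's quasi-likelihood fit, coloured by role. The interval of Acaa1b (-0.90 to -0.17) is the only interval of the 32 that leaves out 0, and that of Pdk4 (-1.04 to 1.28) is the widest.

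None of the acyl-CoA synthetases, which activate fatty acids, passed the test, and 2 of the 4 had a negative log2 fold change. Acsl1 had 1604, 1475, 1489 and 1606 CPM in KO libraries 1 to 4, against 1420.2, 1295, 1788 and 1272 CPM in WT libraries 1 to 4. The KO values lay within the WT range, and the log2 fold change was 0.10 ± 0.15 (SE). Acsl3, which has been tied to lipid droplet formation, had 36.8, 55.6, 26.0 and 57.1 CPM in KO libraries against 37.8, 21.5, 50.4 and 37.9 CPM in WT libraries. Each label thus held values that differed more than 2-fold, by 2.20-fold in KO and 2.34-fold in WT, and the log2 fold change was 0.25 ± 0.29. Acsl4, which prefers arachidonate, had 22.1, 38.4, 28.8 and 38.5 CPM in KO libraries against 47.4, 26.7, 40.0 and 32.8 CPM in WT libraries (log2 fold change -0.20 ± 0.21). Acsl5 had 55.2, 56.3, 61.9 and 49.6 CPM in KO libraries against 60.9, 81.2, 55.4 and 60.9 CPM in WT libraries. Its log2 fold change was -0.21 ± 0.14 and the labels overlapped, with an exact permutation p of 0.257.

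The carnitine shuttle held 2 genes with a positive and 2 with a negative log2 fold change. Cpt1a, the rate-controlling entry enzyme in liver and many other tissues, had 114, 102, 106 and 122 CPM in KO libraries against 145, 103, 105 and 124 CPM in WT libraries. The labels overlapped, and its log2 fold change of -0.10 ± 0.13 turned to 0.003 with liver markers as a covariate. Slc25a20, the carnitine-acylcarnitine carrier of the inner membrane, had 65.1, 48.1, 70.1 and 57.4 CPM in KO libraries against 53.2, 62.9, 55.0 and 52.9 CPM in WT libraries, a log2 fold change of 0.10 ± 0.14. Crat, which trades short acyl groups between carnitine and coenzyme A, averaged 198 ± 48.2 CPM in KO and 181 ± 33.8 CPM in WT (SD, n = 4 each), with a log2 fold change of 0.13 ± 0.18. Cpt2, which rebuilds acyl-CoA inside the mitochondrion, averaged 119.8 ± 18.2 CPM in KO and 125 ± 17.6 CPM in WT, with a log2 fold change of -0.06 ± 0.14.

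Cpt1b, the muscle isoform of the entry enzyme, is not among the 32 genes and is given beside Cpt1a. It had 18.4, 15.4, 27.0 and 16.8 CPM in KO libraries against 9.54, 13.1, 17.2 and 10.6 CPM in WT libraries. KO libraries 1 and 3 were above every WT library, and KO libraries 2 and 4 were below WT library 3 and above the other 3 WT libraries. The log2 fold change was 0.62 ± 0.23, with an exact permutation p of 0.0857, and edgeR's quasi-likelihood test gave an adjusted p of 0.998. The ratio of Cpt1a to Cpt1b in CPM was 6.22, 6.62, 3.92 and 7.26 in KO libraries, against 15.2, 7.82, 6.10 and 11.7 in WT libraries. KO library 3 had the highest Cpt1b and the lowest skeletal muscle marker sum of the KO libraries (439.2 CPM), and without that library the log2 fold change of Cpt1b was 0.42. With a marker covariate it was 0.86 (skeletal muscle) or 0.40 (liver). The skeletal muscle sum largely ran with the label, and the part of muscle RNA in the Cpt1b difference was not tested.

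Of the acyl-CoA dehydrogenases, which open each turn of beta-oxidation for a given chain length, 1 of 4 had a positive log2 fold change and 0 were called. Acadl had 255, 182, 265 and 189.7 CPM in KO libraries against 188, 234, 241.6 and 177 CPM in WT libraries. KO libraries 1 and 3 were above every WT library, KO libraries 2 and 4 were within the WT range, and the log2 fold change was 0.09 ± 0.16. The medium-chain enzyme Acadm averaged 206 ± 29.5 CPM in KO and 226 ± 26.5 CPM in WT, and its log2 fold change was -0.13 ± 0.14. The short-chain enzyme Acads averaged 86.6 ± 17.0 CPM in KO and 95.7 ± 16.4 CPM in WT (log2 fold change -0.14 ± 0.16). The very-long-chain enzyme Acadvl averaged 133 ± 29.5 CPM in KO and 137 ± 25.4 CPM in WT (log2 fold change -0.04 ± 0.17). Reads of Acadvl are uncertain, since the kit does not mark strand and Dvl2 on the opposite strand overlaps 42.9% of its exon bases.

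The 3 electron transfer genes each had a negative log2 fold change that was not called. Etfa and Etfb turned positive (0.11 and 0.21) once skeletal muscle markers, which largely run with the label, were a covariate. Etfb had 184, 108, 176 and 120.2 CPM in KO libraries against 115, 188, 154 and 155 CPM in WT libraries. KO libraries 2 and 4 and WT library 1 were the low ones, and the log2 fold change was -0.06 ± 0.19. The alpha subunit Etfa showed the same 3 libraries lowest, with 147, 102, 166 and 107 CPM in KO libraries against 130.3, 172, 147 and 136 CPM in WT libraries (log2 fold change -0.16 ± 0.16). Etfdh averaged 72.2 ± 9.57 CPM in KO and 75.0 ± 6.31 CPM in WT, with a log2 fold change of -0.06 ± 0.13.

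The hydration-to-thiolysis genes had log2 fold changes between -0.09 and 0.08, 3 positive and 2 negative. Hadha, the alpha subunit of the trifunctional protein, had 161, 138, 181 and 151 CPM in KO libraries against 138, 143, 163 and 151 CPM in WT libraries. Its partner Hadhb had 106, 88.2, 107 and 89.1 CPM in KO libraries against 89.6, 117, 92.6 and 85.4 CPM in WT libraries. Neither subunit separated the labels, with log2 fold changes of 0.08 ± 0.12 for Hadha and 0.02 ± 0.13 for Hadhb. Per exon length, the ratio of Hadha to Hadhb was 1.14, 1.18, 1.28 and 1.28 in KO libraries, against 1.16, 0.919, 1.33 and 1.34 in WT libraries. The KO values lay within the WT range, and WT library 2 was the only library in which Hadhb exceeded Hadha. Of the 31-base words in Hadhb, 19.5% also occurred in the annotated gene Gm13910. Hadh, the dehydrogenase for shorter chains, averaged 290.2 ± 50.8 CPM in KO and 297 ± 57.7 CPM in WT. Echs1, the short-chain hydratase, averaged 182 ± 24.8 CPM in KO and 179 ± 38.8 CPM in WT. Acaa2, the mitochondrial thiolase, averaged 121 ± 28.4 CPM in KO and 129.5 ± 15.6 CPM in WT.

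Enzymes that move or remove unsaturated bonds differed more between mice than between labels. Eci1, the mitochondrial enoyl-CoA isomerase, had 111, 59.7, 143 and 65.6 CPM in KO libraries against 60.9, 107, 81.1 and 87.5 CPM in WT libraries. The KO libraries spanned 2.39-fold and enclosed all 4 WT values, and the log2 fold change was 0.17 ± 0.29. With a marker covariate it was 0.76 (skeletal muscle) or -0.07 (liver). Eci2, an isomerase found in mitochondria and peroxisomes, had 85.0, 68.0, 66.1 and 66.7 CPM in KO libraries against 55.8, 68.9, 67.2 and 65.3 CPM in WT libraries. KO library 1 lay above the other 7 libraries and WT library 1 below them, and the log2 fold change was 0.15 ± 0.13 (exact permutation p = 0.343). Decr1, the dienoyl-CoA reductase, averaged 136 ± 11.7 CPM in KO and 144 ± 17.0 CPM in WT, and Ech1, a dienoyl-CoA isomerase, averaged 191 ± 36.3 CPM in KO and 204 ± 33.2 CPM in WT. Their log2 fold changes were -0.08 ± 0.12 for Decr1 and -0.09 ± 0.16 for Ech1.

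The peroxisomal genes held the member with the smallest p. Acaa1b had 44.9, 45.7, 52.3 and 53.1 CPM in KO libraries 1 to 4, against 64.2, 58.1, 61.8 and 99.6 CPM in WT libraries 1 to 4. All KO libraries were below all WT libraries, and WT library 4 stood well above the other 3. Means were 48.98 ± 4.32 CPM in KO and 70.9 ± 19.3 CPM in WT (SD, n = 4 each). The log2 fold change was -0.53 ± 0.17 (95% interval -0.90 to -0.17). In edgeR's quasi-likelihood test its unadjusted p was 0.00694 and its adjusted p 0.998. The exact permutation p of 0.0286 is the smallest that 4 against 4 allows. Without WT library 4 the log2 fold change was -0.33, the end of a range from -0.62 over single libraries left out. WT libraries 1 and 4 also had the highest liver marker sums (2141 and 1848 CPM), and Acaa1b is a gene that liver expresses. The log2 fold change was -0.43 with liver markers as a covariate, -0.21 with those of skeletal muscle and, in an alternative chosen after seeing the data, -0.29 without WT libraries 1 and 4. The part of liver and muscle RNA in the Acaa1b difference was not tested beyond these values.

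The other copy, Acaa1a, had 102, 82.4, 85.7 and 83.8 CPM in KO libraries against 91.4, 108, 95.8 and 107 CPM in WT libraries. Of its KO values, only that of library 1 reached the WT range, and the log2 fold change was -0.19 ± 0.12 (exact permutation p = 0.114). With the reads of both copies added, an alternative chosen after seeing the data that leaves aside how shared reads were split, the log2 fold change was -0.32. Per exon length, the ratio of Acaa1a to Acaa1b was 1.01, 0.802, 0.729 and 0.701 in KO libraries, against 0.632, 0.828, 0.689 and 0.479 in WT libraries. The labels overlapped in this ratio.

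The multifunctional enzymes of the 2 peroxisomal routes had log2 fold changes of opposite sign, and neither was called. Hsd17b4 had 294, 264, 309 and 312 CPM in KO libraries against 345, 357, 303 and 303 CPM in WT libraries. WT libraries 1 and 2 were above every KO library, WT libraries 3 and 4 were within the KO range, and the log2 fold change was -0.15 ± 0.12 (exact permutation p = 0.200). Ehhadh had 76.5, 58.4, 81.8 and 73.5 CPM in KO libraries against 49.2, 76.8, 74.3 and 58.0 CPM in WT libraries. The labels overlapped, with a log2 fold change of 0.17 ± 0.16 (exact permutation p = 0.371).

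The 2 ketone-use genes had negative log2 fold changes, and neither was called. Acat1, the mitochondrial acetoacetyl-CoA thiolase, had 184, 185, 181 and 180.4 CPM in KO libraries against 181, 196, 170.1 and 204 CPM in WT libraries. Its SD within labels, 0.08 on the log2 scale, was the smallest of the 32 and stood at percentile 1.42 of all genes tested, and its log2 fold change was -0.04 ± 0.11 (95% interval -0.28 to 0.20). Oxct1, the succinyl-CoA transferase that starts ketone use, had 162, 195, 140.5 and 210.0 CPM in KO libraries against 227, 178, 203 and 176 CPM in WT libraries. The labels overlapped, and the log2 fold change of -0.15 ± 0.15 was -0.535 once skeletal muscle markers were a covariate, and was not called there either.

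Pdk4, the pyruvate dehydrogenase kinase that is raised by fasting and lipid, varied most. Pdk4 had 114, 48.7, 218 and 78.8 CPM in KO libraries against 70.8, 138, 135 and 78.8 CPM in WT libraries. The KO values spanned 4.46-fold and enclosed all WT values, which spanned 1.94-fold. Its SD within labels, 0.73 on the log2 scale, stood at percentile 97.1 of all genes tested, and the log2 fold change of 0.12 ± 0.49 went between -0.39 and 0.37 as single libraries were left out. With a marker covariate it was 0.69 (skeletal muscle) or -0.38 (liver). Acot2, the mitochondrial acyl-CoA thioesterase, averaged 25.2 ± 6.10 CPM in KO and 24.8 ± 4.18 CPM in WT, and 29.9% of its 31-base words also occurred in Acot1. The median SD within labels was 0.26 on the log2 scale both for the 32 genes and for all genes tested.

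**Figure D3:**
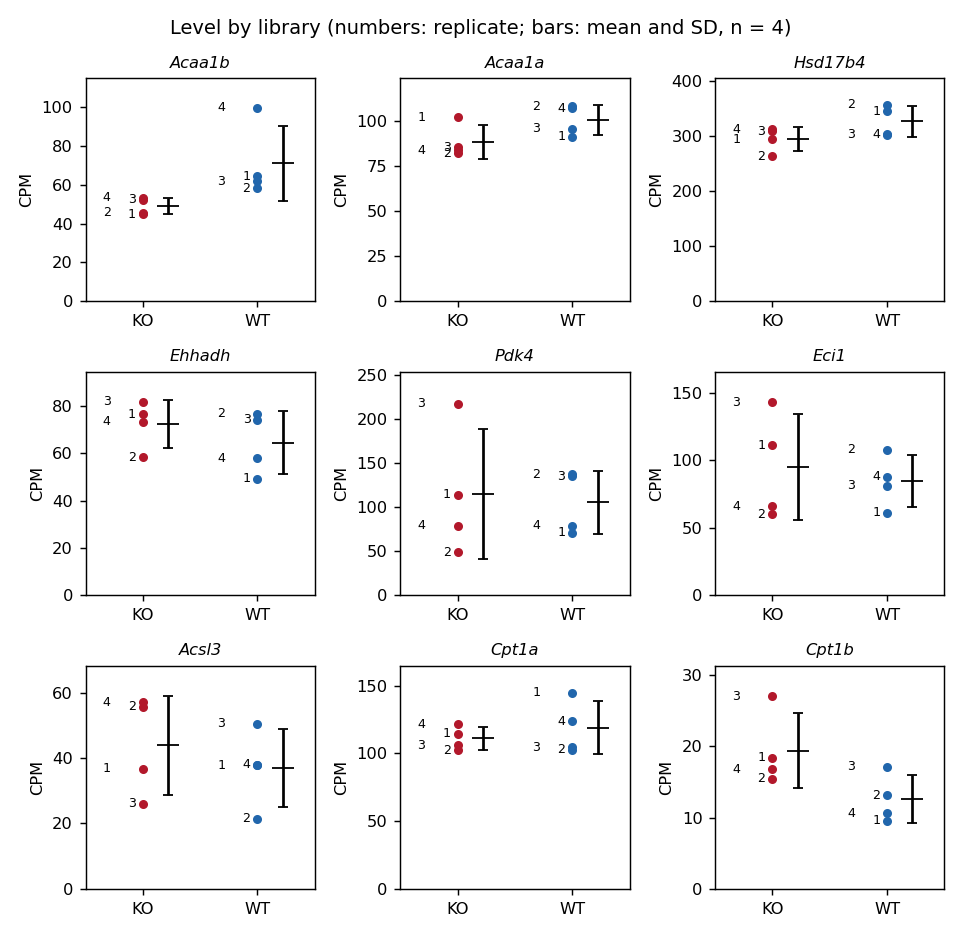
CPM in each library for Acaa1b, Acaa1a, Hsd17b4, Ehhadh, Pdk4, Eci1, Acsl3, Cpt1a and Cpt1b, with KO in red and WT in blue, replicate numbers beside the points, and the mean and SD (n = 4) as bars. The labels are apart only in the Acaa1b panel, where KO lies between 44.9 and 53.1 CPM and WT between 58.1 and 99.6 CPM.

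Set against each other, 18 genes of mitochondrial steps had a median log2 fold change of -0.05 (7 positive, 11 negative, range -0.16 to 0.17). That median turned positive without WT library 2 (0.06), KO library 2 (0.04) or KO library 4 (0.04) and was -0.11 without WT library 1. The 4 peroxisomal genes had a median of -0.17 (1 positive, 3 negative, range -0.53 to 0.17). They include the near-identical copies Acaa1a and Acaa1b, whose reads can be misassigned, so they do not count as 4 separate observations. The difference of the medians of both sets was 0.12, and it ranged from 0.07 to 0.21 as single libraries were left out. With a marker covariate it was 0.31 (skeletal muscle) or 0.06 (liver), and it is a description with no test. Eci2 and Ech1 were assigned to both compartments and counted in neither set. Crat was counted among the mitochondrial genes, and Acot2, grouped under regulation, in neither set.

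The mitochondrial genes varied together from library to library within each label. Relative to each gene's mean over the 8 libraries, the 18 genes averaged 0.15, -0.24, 0.22 and -0.19 on the log2 scale in KO libraries 1 to 4, against -0.20, 0.21, 0.04 and -0.002 in WT libraries 1 to 4. In KO, 15, 0, 17 and 2 of the 18 genes were above their own mean, against 1, 16, 11 and 8 of the 18 in WT. Over all genes tested, each library's average lay within 0.03 of 0. KO library 3 had the highest KO value for 11 of the 18 genes and KO library 2 the lowest for 11, while WT library 2 had the highest WT value for 13 and WT library 1 the lowest for 12. WT library 2 is also the library with the highest small intestine marker sum (568.3 CPM), whose part in these values was not tested. High and low libraries thus occurred under both labels, and the spread of each label was wider than the difference of the labels. These are library values of 18 genes that share each library's RNA, so they do not count as 18 separate observations.

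The 4 peroxisomal genes, on the same scale, averaged -0.04, -0.25, -0.004 and -0.04 in KO libraries 1 to 4, against -0.05, 0.15, 0.06 and 0.18 in WT libraries 1 to 4. In WT library 4 only 2 of the 4 were above their own mean, and Acaa1b stood at 99.6 CPM, far from the other WT libraries. KO library 2 was low and WT library 2 high in both compartments. KO library 3, by contrast, was the highest library for the mitochondrial genes and near 0 for the peroxisomal genes. The 4 synthetases averaged -0.16, 0.16, -0.18 and 0.15 in KO libraries, against 0.11, -0.23, 0.20 and -0.06 in WT libraries. In 6 of the 8 libraries this average had the opposite sign to the mitochondrial average. It does not describe each synthetase: 1, 2, 2 and 3 of the 4 were above their own mean in KO libraries, against 2, 1, 3 and 1 in WT libraries. Acsl3 and Acsl4 had the widest spread of the 4 within labels (SD 0.52 and 0.37 on the log2 scale). Summed brown and beige adipocyte markers (9 of 10 in the table, 2 of them at 0 in at least 1 library) were 148.6, 92.3, 185.6 and 112.3 CPM in KO libraries, against 105.3, 160.4, 154.8 and 144.8 CPM in WT libraries. Kcnk3 was the most abundant of them, and Ucp1 was not on the list. Because Ppargc1a and Fabp3 are also on the lists of further oxidation genes below, the list does not mark beige adipocytes alone. The 3 libraries lowest in the brown and beige sum, KO libraries 2 and 4 and WT library 1, were also the 3 lowest for the mitochondrial genes. The general adipocyte sum was highest in KO library 1 (23470 CPM), WT library 2 (21860 CPM) and KO library 3 (21810 CPM). These were also the 3 highest for the mitochondrial genes. It was lowest in KO libraries 2 and 4 (17270 and 17930 CPM), but WT library 1 (19400 CPM) was above WT libraries 3 and 4 (18690 and 18620 CPM). The part of beige adipocytes, or of adipocytes in general, in the mitochondrial values was not tested.

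**Figure D4:**
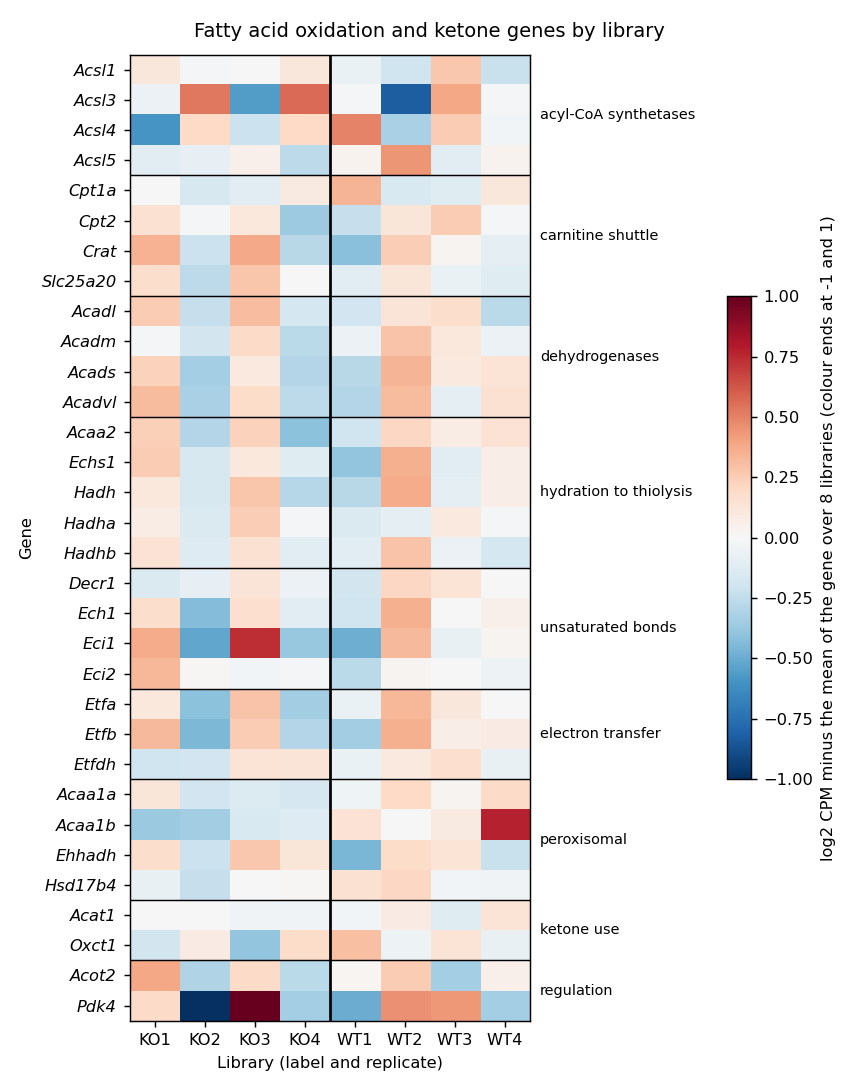
Log2 CPM of each of the 32 genes minus its mean over the 8 libraries, KO libraries on the left and WT libraries on the right, with genes grouped by role and the colour scale ending at -1 and 1. Mitochondrial genes are mostly above their mean in KO libraries 1 and 3 and WT library 2 and mostly below it in KO libraries 2 and 4 and WT library 1.

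**Figure D5:**
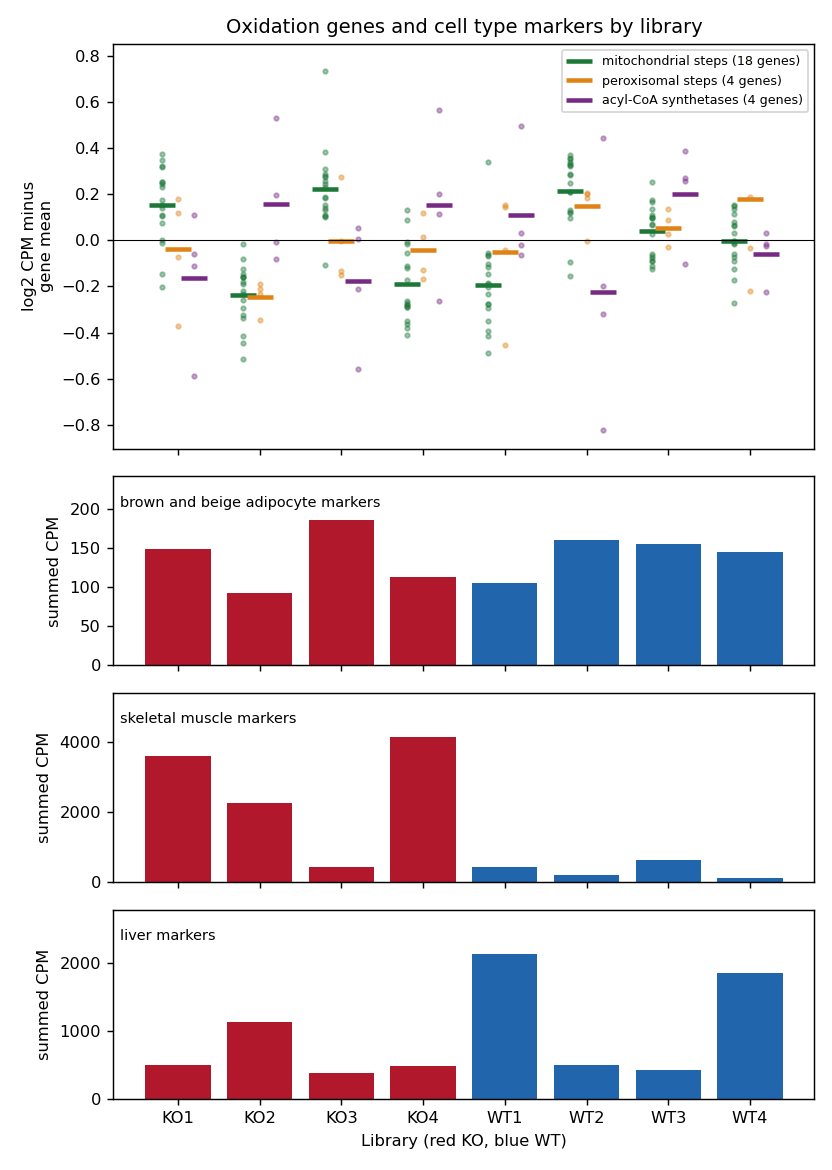
Top, log2 CPM minus the gene's mean by library for 18 mitochondrial, 4 peroxisomal and 4 synthetase genes (points) with their averages (lines). Below, summed CPM of brown and beige adipocyte, skeletal muscle and liver markers, KO in red and WT in blue; the brown and beige sum runs from 92.3 CPM in KO library 2 to 185.6 CPM in KO library 3.

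Other genes of the pathway gave no call either. Of 24 further genes tested from a list for mitochondrial oxidation, 13 had a positive and 11 a negative log2 fold change (median 0.03), and 0 passed the adjusted threshold. That list is not purely mitochondrial. It also holds the cell-surface transporters Cd36, Slc27a1 and Slc22a5 and the peroxisomal enzymes Nudt7 and Nudt19. Cpt1b, above, had the smallest p among the positive ones, and Acsf2, a medium-chain synthetase, among the negative ones (log2 fold change -0.13 ± 0.16). Of 24 further peroxisomal genes, 11 were positive and 13 negative (median -0.02), with 0 called. Acot4, a peroxisomal thioesterase, had 18.4, 10.6, 8.53 and 7.49 CPM in KO libraries against 6.61, 6.37, 2.86 and 8.39 CPM in WT libraries, and its log2 fold change was 0.89 ± 0.35 with overlapping labels. Slc27a2, a very-long-chain acyl-CoA synthetase abundant in liver, had 1.47, 9.95, 6.05 and 1.78 CPM in KO libraries against 36.0, 3.58, 2.502 and 28.8 CPM in WT libraries (log2 fold change -1.86 ± 1.03), highest in the WT libraries with the most liver marker RNA. With liver markers as a covariate that log2 fold change was -0.27, and it ranged from -2.50 to -1.26 as single libraries were left out. The part of liver RNA in the Slc27a2 difference was not tested.

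Of 8 further ketone genes, 5 were positive and 3 negative (median 0.04), with 0 called. Aacs, which makes acetoacetyl-CoA in the cytosol for lipid synthesis, had 254, 235.1, 171 and 238 CPM in KO libraries against 149, 218, 217 and 216 CPM in WT libraries (log2 fold change 0.17 ± 0.16). Bdh1, the mitochondrial ketone dehydrogenase, had 11, 7, 6 and 1 reads in KO libraries against 23, 10, 6 and 19 reads in WT libraries, too few for a firm value. Its log2 fold change was -1.26 ± 0.53. Of 23 regulators of oxidation, 16 were positive and 7 negative (median 0.14), with 0 called. The list mixes activators and brakes of oxidation, so these signs have no single meaning for oxidation. Esrra, the estrogen-related receptor alpha that drives mitochondrial gene programmes, had 57.0, 50.1, 59.4 and 56.3 CPM in KO libraries against 39.6, 45.8, 43.6 and 44.9 CPM in WT libraries. It had the smallest p among the positive ones. All KO values of Esrra were above all WT values, with a log2 fold change of 0.36 ± 0.12, but edgeR's quasi-likelihood test adjusted its p to 0.998. The labels did not overlap for 1 of the 23 regulators, Esrra, against 2.92% of all genes tested. Rxrb, a retinoid X receptor, had the smallest p among the negative ones (log2 fold change -0.15 ± 0.17).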

How the data were processed

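RNA was isolated with on-column DNase digestion and enriched for poly(A), and libraries were amplified by 12 PCR cycles from an unstranded kit, per the labels' protocols. FastQC, Bowtie2, edgeR and the build mm9 appear in the submitters' processing notes without role or version; the read counter and gene annotation were not given in the sources used here. Raw counts of reads by gene and library were deposited by the authors, without normalization, with a table of their comparison that holds log2 fold changes, log2 mean expression, p-values and adjusted p-values, per the file headers. Columns were matched to samples by the mouse label in their names. Libraries held 2617755 to 2873457 reads. Between libraries of a label, chi-square per gene was at least 4.45, so none was counted as a copy of another.

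The counts were fitted with edgeR 4.0.16 (R 4.3.3) on all 8 libraries: TMM scaling, filterByExpr (14556 of 18022 genes tested), a robust quasi-likelihood F test with the label as the only term, and Benjamini-Hochberg adjustment over all genes tested at 0.05. The script was tested on simulated data. The biological coefficient of variation was 18.4% (common dispersion 0.0337). CPM are TMM-scaled, and exact two-sided permutation used log2(CPM + 0.5). The smallest adjusted p over all genes was 0.539. Each SE is the log2 fold change divided by the square root of F. RPKM used exon lengths of GENCODE M21, and promoter windows are RefSeq's. DESeq2 1.42.0, edgeR's likelihood ratio test, RLE factors, no filter, a replicate block, marker covariates and single libraries left out were the alternatives. The genes, the lists and the alternatives were chosen with earlier results of these data known. Given in full are the 4 genes with the smallest p in each direction, the 4 with the widest spread within labels, both gene pairs, Prkd1 and Cpt1b. Some others are also given by library to show the pattern across mice; these were chosen after their values were seen. Replicate numbers are shared by the labels but pair nothing: same-numbered libraries correlated at -0.144, -0.291, -0.194 and -0.268 in their deviations from the label means.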

Additional observations from a re-analysis of the deposited data

Results flagged for a closer look

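Each of the 32 genes was examined in each label for a library far from the other 3, which gave 64 groups of 4 libraries. The distance of the extreme library to its nearest neighbour, as a share of the range, exceeded Dixon's 95% critical value in 3 of the 64, where chance gives about 1 in 20. Eci2 stood at 85.0 CPM in KO library 1, above 66.1 to 68.0 CPM in the other KO libraries (share 0.903). Acaa1a stood at 102 CPM in KO library 1, above 82.4 to 85.7 CPM in the other KO libraries (share 0.833). Acaa1b stood at 99.6 CPM in WT library 4, above 58.1 to 64.2 CPM in the other WT libraries (share 0.852). The skeletal muscle markers summed to 3604 CPM in KO library 1, and to 4137 CPM in KO library 4, where Eci2 was at 66.7 CPM and Acaa1a at 83.8 CPM. The liver markers summed to 1848 CPM in WT library 4, and to 2141 CPM in WT library 1, where Acaa1b was at 64.2 CPM. The part of either in these values was not tested.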

How the results depend on the processing

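No gene of the 32 passed an adjusted p of 0.05 in any alternative run, and the smallest adjusted p was 0.558, in edgeR's likelihood ratio test. RLE factors, no filter, DESeq2, the likelihood ratio test and the replicate block left the sign of all 32 in place. The replicate block called 0 genes and gave a difference between mitochondrial and peroxisomal medians of 0.116, against 0.122 without it. The replicate numbers carry no pairing in the labels, and no library correlated best with its own number. Over all genes the calls numbered 36 in DESeq2, 58 in the likelihood ratio test and 0 to 50 with single libraries left out, the 50 being without KO library 3; the cause was not tested.

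With skeletal muscle markers as a covariate the mitochondrial median was 0.176 and the difference between compartments 0.310. That covariate largely runs with the label, so fits with it cannot fully tell muscle RNA from the label. Leaving out KO libraries 1, 2 and 4, chosen after seeing the data, gave 0.160 and 0.317; the lone KO library is then assumed to vary like WT. Leaving out WT libraries 1 and 4, also chosen after seeing the data, gave a mitochondrial median of -0.139 and a difference of 0.044. With single libraries left out the mitochondrial median ranged from -0.108 to 0.057. The median level was 45.0 RPKM by the longest transcript, against 35.7 RPKM by exon union.

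The sign turned in at least 1 alternative for 24 of the 32 genes, and the cause was not tested. Aacs, Acsf2, Prkd1 and Rxrb, also given below, are not among the 32. With liver markers as a covariate the log2 fold change was -0.067 for Acadl, -0.013 for Acot2, 0.003 for Cpt1a, -0.033 for Crat, -0.076 for Echs1, -0.074 for Eci1, -0.010 for Ehhadh, -0.068 for Hadhb and -0.380 for Pdk4. With skeletal muscle markers it was -0.067 for Aacs, 0.188 for Acaa2, 0.060 for Acadm, 0.053 for Acads, 0.253 for Acadvl, 0.058 for Acat1, 0.030 for Acsf2, -0.135 for Acsl1, -0.517 for Acsl3, 0.031 for Acsl5, 0.018 for Cpt2, 0.061 for Decr1, 0.109 for Ech1, 0.111 for Etfa, 0.207 for Etfb, 0.334 for Hadh, -0.100 for Prkd1 and 0.234 for Rxrb. With single libraries left out it ranged from -0.194 to 0.017 for Acaa2, -0.008 to 0.171 for Acadl, -0.156 to 0.069 for Acadvl, -0.121 to 0.118 for Acot2, -0.163 to 0.008 for Cpt1a, -0.140 to 0.042 for Cpt2, -0.173 to 0.019 for Ech1, -0.085 to 0.165 for Echs1, -0.097 to 0.339 for Eci1, -0.187 to 0.061 for Etfb, -0.113 to 0.001 for Etfdh, -0.139 to 0.095 for Hadh, -0.033 to 0.130 for Hadhb, -0.391 to 0.374 for Pdk4 and -0.024 to 0.145 for Prkd1. Acaa1b ranged from -0.619 to -0.327.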
